A study of Homo sapiens with 12 samples.

Results

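The BCL2 family apoptosis genes examined here were the rows of the deposited expression table whose gene name was BCL2, BCL2L1, MCL1, BAX, BAK1, BID, BCL2L11, BBC3, PMAIP1 or BIK, which gave 10 of 58302 genes. Each name was found once, and all 10 genes passed the filter on low values in every comparison. Their transcripts were measured by bulk RNA sequencing in 12 libraries of established prostate epithelial lines. BPH-1, DU145 and PC3 had 4 libraries each. BPH-1 is an immortalized line from benign prostate, and DU145 and PC3 are prostate cancer (PCa) lines from metastases. All were labelled wild type, were grown in the same serum-containing medium with antibiotics, and had no treatment named. Each line is a single model of its disease state, so benign against PCa and line against line cannot be told apart. The labels did not say whether the 4 libraries of a line came from separate cultures, so the p-values below measure the spread between these libraries, which may be technical.

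The BCL2 family controls the permeability of the outer mitochondrial membrane. Anti-apoptotic members (BCL2, BCL-xL from BCL2L1, and MCL-1) hold the effectors BAX and BAK in check. BH3-only members (BID, BIM from BCL2L11, PUMA from BBC3, NOXA from PMAIP1, and BIK) respond to stress by binding the anti-apoptotic members or by activating the effectors, after which cytochrome c leaves the mitochondrion and caspases are activated. Much of this control lies in splicing, phosphorylation, cleavage and protein turnover. A gene-level transcript value does not show these, and it does not separate isoforms such as the long and short forms of BCL-x.

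Values are FPKM, the reads of a gene per length of exon and per library depth. The depth of each library, recovered from the FPKM values and not stated by the submitters, lay between 12950662 and 16309563 reads. The FPKM of BPH-1 libraries summed to 246960 ± 2986 (SD, n = 4), below those of DU145 (293757 ± 5858, n = 4) and PC3 (298496 ± 5975, n = 4). The trend of FPKM with gene GC content differed between libraries. On the log2 scale and relative to the mean library, genes of 60% GC stood against genes of 45% GC at -0.81 to -0.61 in BPH-1, at 0.92, -0.38, 1.46 and -0.18 in DU145 replicates 1 to 4, and at -0.05 to 0.82 in PC3. KRT5, a basal keratin, was at 120 to 175 FPKM in BPH-1 and at most 0.499 in the PCa lines. KLK3 (prostate specific antigen) had no read in any library, although 3 of 7 luminal markers reached 1 FPKM in each line. KRT15, another basal keratin, was not lower in PC3 (mean 1.67 FPKM) than in BPH-1 (1.31), and was at 0.270 in DU145. Summed FPKM per library was 299 to 427 for 4 basal markers in BPH-1 and at most 2.43 in the PCa lines. Over all libraries it was at most 7.14 for 6 fibroblast, 1.51 for 4 smooth muscle and 2.28 for 3 endothelial markers, and 4.86 to 13.5 for 4 immune markers, of which CD3E was at 0 throughout. STAT3, which PC3 cells are known to lack, was at 0.0315 to 0.0588 FPKM in PC3 and at 13.2 to 25.5 in the other lines. DU145 replicates 1 and 2 carried KRT5 (0.342 and 0.499) and PTPRC (1.35 and 1.25), against 0 to 0.0240 and 0 in DU145 replicates 3 and 4, while BPH-1 libraries held PTPRC at 1.15 to 1.54. The part of these traces in the results was not tested, nor was it tested whether libraries had been mixed or mislabelled. Values without those libraries are given where they change a call.

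Promoter sequences of RefSeq were matched by symbol for 8 of the 10 genes. Those of BCL2L1, PMAIP1 and BBC3 are shown because these genes had the largest ratios of means between PC3 and BPH-1. Each is the 250 bases before the annotated start, on the strand of the gene, in build GRCh38.p14. Of the entries of BCL2L1 the one farther upstream is shown. Capitals mark matches, on either strand, to the GC box GGGCGG, the E-box CACGTG, or ACGTCA from the cyclic AMP response element.
BCL2L1, chr20:31723964-31724213, minus strand: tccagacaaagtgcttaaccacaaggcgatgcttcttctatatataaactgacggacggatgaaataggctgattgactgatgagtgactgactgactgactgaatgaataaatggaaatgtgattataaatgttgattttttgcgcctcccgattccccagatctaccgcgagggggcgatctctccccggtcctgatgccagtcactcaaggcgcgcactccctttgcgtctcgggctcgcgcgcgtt
PMAIP1, chr18:59899746-59899995, plus strand: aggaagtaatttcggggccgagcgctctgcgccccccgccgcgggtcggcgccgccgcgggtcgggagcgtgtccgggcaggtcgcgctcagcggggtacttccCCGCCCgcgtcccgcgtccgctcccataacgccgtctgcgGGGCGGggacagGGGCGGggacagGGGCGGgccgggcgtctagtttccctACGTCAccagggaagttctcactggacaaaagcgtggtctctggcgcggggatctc
BBC3, chr19:47232668-47232917, minus strand: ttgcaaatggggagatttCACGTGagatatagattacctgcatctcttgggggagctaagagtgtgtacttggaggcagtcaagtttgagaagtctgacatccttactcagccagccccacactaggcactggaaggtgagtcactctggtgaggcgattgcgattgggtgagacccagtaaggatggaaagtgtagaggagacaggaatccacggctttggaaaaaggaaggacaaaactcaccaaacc

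The PMAIP1 window was rich in GC (72.8%) with 36 CpG, 4 GC boxes and 1 ACGTCA. The BBC3 window had 49.2% GC, 4 CpG and 1 E-box, and that of BCL2L1 had 50% GC, 17 CpG and none of these letters. Of all 35116 promoters of the same length, 42.6% held the GC box, 6.34% the E-box and 7.10% ACGTCA, and the median promoter held 11 CpG. BAX held 4 E-boxes in its window. These matches describe the letters and were not tied to any change in level.

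Against BPH-1, both PCa lines had more BCL2L1 and less BAX and BCL2L11, though in PC3 the calls of BAX and BCL2L11 did not hold under every alternative tried. The PCa lines parted at MCL1, BBC3 and PMAIP1, which were lower in PC3, and at BID and BIK, of which BID was higher and BIK lower in DU145. Between the PCa lines the calls of MCL1 and BIK did not hold under every alternative either. In PC3 against BPH-1, 6 of the 10 members passed the test (limma, Benjamini-Hochberg adjusted p under 0.05 over all genes), 1 higher and 5 lower, where 67.6% of the 16408 genes tested passed it, 27.1% higher and 40.4% lower. In DU145 against BPH-1, 5 passed it, 2 higher and 3 lower, where 62.7% of 17016 genes did, 30.3% higher and 32.4% lower. In PC3 against DU145, 5 passed it, 1 higher and 4 lower, where 48.3% of 16420 genes did, 20% higher and 28.3% lower. The libraries of the lines compared did not overlap for 6, 5 and 4 members, beside 64.4%, 59.5% and 46.5% of all genes tested. For those members the exact two-sided permutation p was 0.0286, the smallest that 4 against 4 libraries allow. These shares of the members were near those of genes at large. Their median log2 fold change was -0.27, -0.02 and -0.13, beside -0.13, -0.03 and -0.05 over all genes tested. The comparisons of the PCa lines share the BPH-1 libraries and are not independent.

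**Figure D1:**
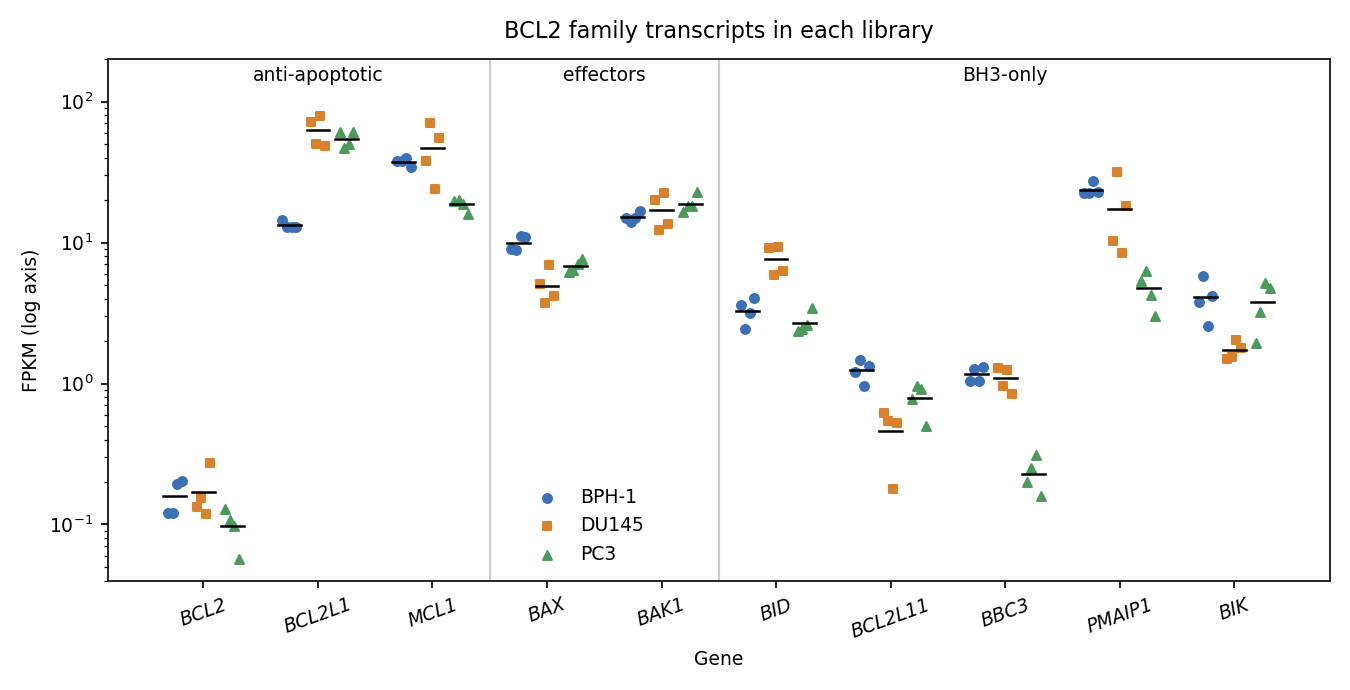
FPKM (log axis) of each member in each of the 12 libraries, by line (circles BPH-1, squares DU145, triangles PC3), with a bar at the mean of 4 libraries and the members grouped by role. BCL2L1 in BPH-1 (12.8 to 14.4) lay below every PCa library (47.0 to 79.0), and PMAIP1 in PC3 (3.02 to 6.27) lay below every other library.

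**Figure D2:**
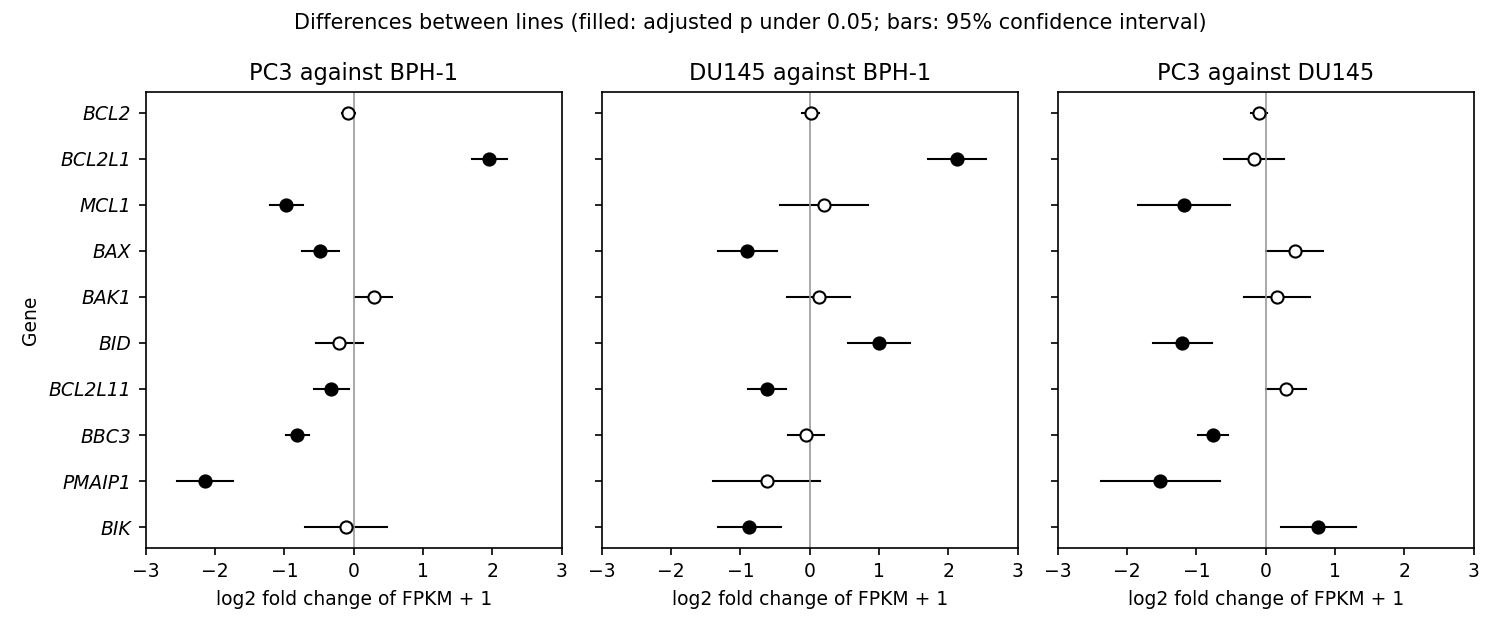
Log2 fold change of FPKM + 1 for each member in the 3 comparisons, with 95% confidence intervals from limma and filled points for adjusted p under 0.05. BCL2L1 stood at 1.95 and 2.12 against BPH-1 and at -0.17, with an open point, between the PCa lines.

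BCL2L1, on chromosome 20 (31664452 to 31723989, minus strand), encodes BCL-xL, a guardian of the outer membrane in epithelial cells. It was at 14.4, 12.8, 12.8 and 13 FPKM in the BPH-1 libraries, at 72.1, 49.8, 79.0 and 48.7 in DU145, and at 60.5, 47.0, 50.2 and 60.4 in PC3. Every PCa library lay above every BPH-1 library, while the PCa lines overlapped. The mean was 4.71-fold higher in DU145 than in BPH-1 (log2 fold change of FPKM + 1 2.12 ± 0.19 SE, adjusted p = 9.64e-06, limma) and 4.11-fold higher in PC3 (1.95 ± 0.11, adjusted p = 7.01e-07). Both passed the test under every alternative tried. After the GC trend of each library was divided out the differences were 1.36 and 1.37, still called. Between PC3 and DU145 the difference was -0.17 with a 95% confidence interval of -0.60 to 0.26. ABALON, an antisense gene over BCL2L1, was at 0.0339 to 0.103 FPKM in BPH-1, 0.387 to 0.843 in DU145 and 0.487 to 0.997 in PC3. Whether counting used strand is not given in the sources used here, so reads of the pair could not be separated. The part of antisense reads in the BCL2L1 values was not tested.

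MCL1, on chromosome 1 (150574551 to 150579738, minus strand), encodes a short-lived anti-apoptotic protein that NOXA binds. It was at 37.7, 38.0, 40.0 and 34.1 FPKM in BPH-1, at 37.7, 69.9, 24 and 54.9 in DU145, and at 19.8, 20.2, 18.8 and 15.8 in PC3. All PC3 libraries lay below all others, and DU145 libraries fell on both sides of BPH-1. MCL1 was 2.01-fold lower in PC3 than in BPH-1 (log2 -0.97 ± 0.11 SE, adjusted p = 3.83e-05, limma) and 2.5-fold lower than in DU145 (-1.18 ± 0.29, adjusted p = 0.00873). Without DU145 replicates 1 and 2 the second difference was -0.93 and did not pass (adjusted p = 0.0596). In DU145 against BPH-1 the difference was 0.21 (95% confidence interval -0.43 to 0.84), and it was 0.71 and called (adjusted p = 0.00243) when DU145 replicates 1 and 3, with the steepest GC trends, were left out.

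BCL2, on chromosome 18 (63123346 to 63320128, minus strand), the founding member of the family, was the lowest of the 10 in every line. It was at 0.120, 0.121, 0.194 and 0.205 FPKM in BPH-1, at 0.133, 0.155, 0.120 and 0.275 in DU145, and at 0.128, 0.108, 0.0976 and 0.0570 in PC3. These values rest on 12 to 60 reads per library, and the lines overlapped. No main comparison called it, and at this depth a difference such as the mean of 0.0976 in PC3 against 0.160 in BPH-1 (adjusted p = 0.115, limma) was not separable from the spread. That difference was called lower in 1 of 18 alternatives, with libraries of equal sum (adjusted p = 0.0402, limma).

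The balance of the 2 abundant anti-apoptotic members differed between lines. BCL2L2, an anti-apoptotic gene outside the members, averaged 22.8 FPKM in BPH-1, above the mean of BCL2L1 there. It averaged 7.94 in DU145 and 7.19 in PC3. The ratio of MCL1 to BCL2L1 FPKM was 2.83 ± 0.25 in BPH-1 (SD, n = 4, range 2.62 to 3.11), 0.839 ± 0.512 in DU145 (0.304 to 1.40) and 0.349 ± 0.071 in PC3 (0.262 to 0.430). BPH-1 libraries lay above all others without overlap. DU145 replicates 2 and 4 lay above 1 and replicates 1 and 3 below it. After GC correction the means were 1.95, 0.956 (range 0.739 to 1.15) and 0.376, and no line overlapped another. These ratios are descriptions with no test.

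**Figure D3:**
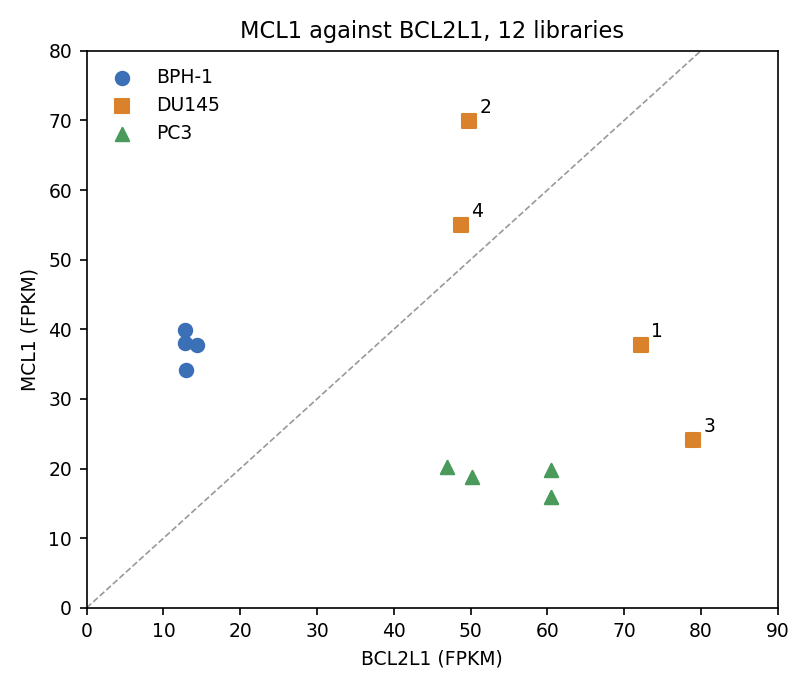
MCL1 against BCL2L1 FPKM in the 12 libraries, with DU145 replicates numbered and a dashed line of equal values. The 4 BPH-1 libraries (MCL1 34.1 to 40.0) lie above the line, the 4 PC3 libraries (15.8 to 20.2) below it, and DU145 lies on both sides.

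Of the effectors, BAX, on chromosome 19 (48954815 to 48961798, plus strand), was at 8.99, 8.79, 11.1 and 10.9 FPKM in BPH-1, at 5.04, 3.74, 6.87 and 4.14 in DU145, and at 6.19, 6.38, 7.08 and 7.61 in PC3. Every PCa library lay below every BPH-1 library. BAX was 2.01-fold lower in DU145 (log2 -0.90 ± 0.19 SE, adjusted p = 0.00233, limma) and 1.46-fold lower in PC3 (-0.48 ± 0.12, adjusted p = 0.00515). With upper-quartile scaling the PC3 difference was -0.11 and was not called (adjusted p = 0.536), while the GC correction gave -1.18. Between PC3 and DU145 the difference was 0.42 (adjusted p = 0.0867), and it was 0.66 and called (adjusted p = 0.00639) without DU145 replicates 1 and 3. DU145 cells are known to make no BAX protein, which the transcript level does not show.

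BAK1, on chromosome 6 (33572547 to 33580293, minus strand), encodes the other effector. It was at 15, 13.9, 15 and 16.7 FPKM in BPH-1, at 20.1, 12.2, 22.5 and 13.6 in DU145, and at 16.3, 18.2, 18.1 and 22.6 in PC3. The lines overlapped in each comparison and no difference was called. The log2 differences against BPH-1 were 0.29 in PC3 (adjusted p = 0.0529, limma) and 0.13 in DU145 (adjusted p = 0.607), and after GC correction they turned to -0.38 (adjusted p = 0.00742) and -0.65 (adjusted p = 0.000691). In PC3 against BPH-1 it was called higher with median-of-ratios and upper-quartile scaling, with voom and without PC3 replicate 1, so no direction for BAK1 can be given. In PC3 against DU145, BAK1 was called higher in 1 of 20 alternatives, without DU145 replicates 1 and 3 (adjusted p = 0.0288, limma). BAK1P1, a processed copy on chromosome 20 (32690180 to 32690815), was listed at 3.57 to 8.15 FPKM over all libraries, so the split of reads between gene and copy is uncertain. The ratio of BAK1 to BAX, genes of like GC content, was 1.53 ± 0.13 in BPH-1, 3.45 ± 0.36 in DU145 and 2.76 ± 0.19 in PC3 (SD, n = 4), and GC correction left it at 1.5, 3.43 and 2.83.

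BCL2L1 was also high beside BAX. The ratio of BCL2L1 to BAX FPKM was 1.35 ± 0.22 in BPH-1 (range 1.16 to 1.60), 12.7 ± 1.3 in DU145 (11.5 to 14.3) and 8.04 ± 1.21 in PC3 (7.09 to 9.77), each SD with n = 4. The lines did not overlap, and the GC-corrected means were 1.29, 12.5 and 8.57. Summed over their members, the anti-apoptotic transcripts came to 50.9 ± 2.5 FPKM in BPH-1, 109 ± 8 in DU145 and 73.3 ± 6.2 in PC3, and the effectors to 25.1 ± 2.2, 22.1 ± 6.3 and 25.6 ± 3.3. The anti-apoptotic sum leaves out BCL2L2, which was lower in both PCa lines than in BPH-1. In bulk libraries such as these, fewer cells with a transcript and less of it per cell cannot be told apart.

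Of the BH3-only genes, BID, on chromosome 22 (17734138 to 17774770, minus strand), links death receptors to mitochondria after cleavage by caspase 8. It was at 3.58, 2.43, 3.15 and 4.01 FPKM in BPH-1, at 9.09, 5.88, 9.33 and 6.27 in DU145, and at 2.37, 2.42, 2.58 and 3.45 in PC3. All DU145 libraries lay above all others, while PC3 and BPH-1 overlapped. BID was 2.32-fold higher in DU145 than in BPH-1 (log2 1.0 ± 0.20 SE, adjusted p = 0.00164, limma) and 2.82-fold lower in PC3 than in DU145 (-1.21 ± 0.19, adjusted p = 0.000658). Both held under every alternative, the first at 0.45 after GC correction (adjusted p = 0.0224). In PC3 against BPH-1 the difference was -0.21 (adjusted p = 0.256), and it was called lower with libraries of equal sum (-0.41, adjusted p = 0.0356) and after GC correction (-0.57, adjusted p = 0.00513).

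The protein-coding genes whose lower coordinate lay within 1 Mb of that of BID moved like it in DU145. Of 12 tested, 11 were higher in DU145 than in BPH-1 and 0 lower (median log2 fold change 0.90), beside 30.3% higher over all genes tested. BCL2L13, another BCL2 family gene in that window, was at 16.9 to 23.2 FPKM in DU145 and at 2.80 to 4.62 in BPH-1 (2.15 ± 0.18 SE, adjusted p = 7.17e-06, limma), and MICAL3 differed by 1.96. After GC correction 8 of the 12 were higher and 0 lower (median 0.46), beside 25% higher over all genes (median -0.13). In PC3 against BPH-1, 0 of 9 neighbours tested were higher and 4 were lower, beside 27.1% and 40.4% over all genes tested. Copy number was not measured, and its part in this was not tested.

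**Figure D4:**
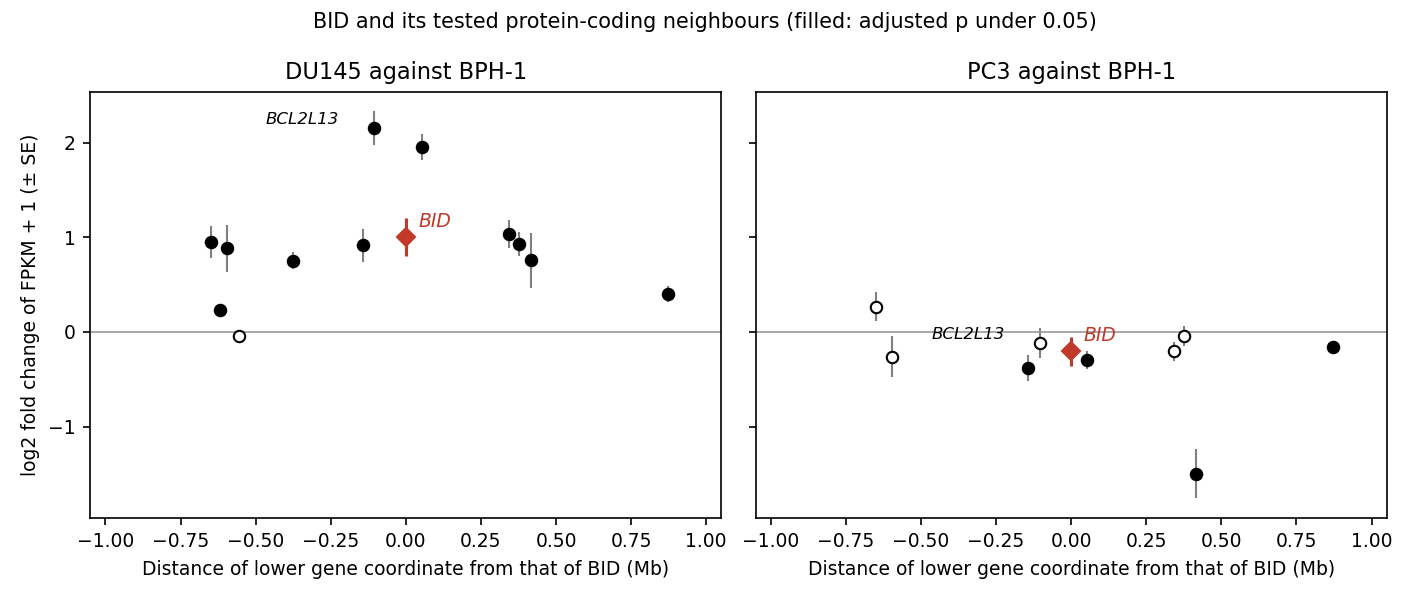
Log2 fold change of FPKM + 1 (± SE) of BID (red diamond, drawn filled whether or not it was called) and of the tested protein-coding genes around it (circles, filled where adjusted p under 0.05) against the distance between lower gene coordinates in Mb. In DU145 against BPH-1 11 of 12 neighbours are called higher, and in PC3 against BPH-1 none is.

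BCL2L11, on chromosome 2 (111119378 to 111168447, plus strand), encodes BIM, which binds all anti-apoptotic members. It was at 1.2, 1.46, 0.957 and 1.33 FPKM in BPH-1, at 0.618, 0.538, 0.178 and 0.522 in DU145, and at 0.779, 0.955, 0.920 and 0.50 in PC3. Every PCa library lay below every BPH-1 library, the nearest pair at 0.955 and 0.957. BCL2L11 was 2.66-fold lower in DU145 (log2 -0.62 ± 0.12 SE, adjusted p = 0.00167, limma), which held under every alternative. It was 1.57-fold lower in PC3 (-0.33 ± 0.11, adjusted p = 0.0276), which was called in 8 of 18 alternatives and not without BPH-1 replicate 1, 2 or 4 or PC3 replicate 1 or 4. With the replicate number as a block the adjusted p was 0.0509. Between PC3 and DU145 the difference was 0.29 (adjusted p = 0.0872). It was called higher in PC3 in 3 of 20 alternatives, median-of-ratios and upper-quartile scaling and without PC3 replicate 4 (lowest adjusted p = 0.0361, limma). MIR4435-2HG lies over the gene on the opposite strand, at 1.68 to 2.58 FPKM in BPH-1, 3.05 to 4.21 in DU145 and 1.41 to 1.62 in PC3, and without strand its shared reads could not be told from those of BCL2L11.

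BBC3, on chromosome 19 (47220822 to 47232766, minus strand), encodes PUMA, which binds all anti-apoptotic members. It was at 1.03, 1.26, 1.04 and 1.32 FPKM in BPH-1, at 1.29, 0.957, 1.26 and 0.844 in DU145, and at 0.199, 0.250, 0.309 and 0.159 in PC3. All PC3 libraries, with 12 to 25 reads each, lay below all others, and BPH-1 and DU145 overlapped. BBC3 was 5.07-fold lower in PC3 than in BPH-1 (log2 -0.81 ± 0.07 SE, adjusted p = 1.05e-05, limma) and 4.74-fold lower than in DU145 (-0.76 ± 0.09, adjusted p = 0.000167). The log2 values are smaller than the ratios of means because 1 FPKM was added to low levels. Both held under every alternative. In DU145 against BPH-1 the difference was -0.05 (adjusted p = 0.700), and -0.54 and called after GC correction (adjusted p = 0.00192).

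PMAIP1, on chromosome 18 (59899948 to 59904306, plus strand), encodes NOXA, the partner and antagonist of MCL-1. It was at 22.5, 22.3, 27.3 and 22.9 FPKM in BPH-1, at 10.3, 31.8, 8.40 and 18.2 in DU145, and at 5.37, 6.27, 4.26 and 3.02 in PC3. All PC3 libraries lay below all others, and the 4 DU145 libraries spread on both sides of BPH-1. PMAIP1 was 5.02-fold lower in PC3 than in BPH-1 (log2 -2.14 ± 0.18 SE, adjusted p = 7.02e-06, limma) and 3.63-fold lower than in DU145 (-1.52 ± 0.38, adjusted p = 0.00899), both under every alternative. In DU145 against BPH-1 the difference was -0.62 (adjusted p = 0.142). It was -0.96 and called without DU145 replicate 2 (adjusted p = 0.00714), -0.88 and called without replicates 1 and 2 (adjusted p = 0.0358), and 0.04 after GC correction.

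BIK, on chromosome 22 (43110748 to 43129712, plus strand), encodes a BH3-only protein of the endoplasmic reticulum. It was at 3.81, 5.77, 2.57 and 4.17 FPKM in BPH-1, at 1.49, 1.54, 2.04 and 1.8 in DU145, and at 1.94, 3.21, 5.14 and 4.78 in PC3. All DU145 libraries, with 23 to 30 reads each, lay below all BPH-1 libraries, and PC3 overlapped both lines. BIK was 2.38-fold lower in DU145 than in BPH-1 (log2 -0.87 ± 0.20 SE, adjusted p = 0.00407, limma), under every alternative. It was 2.19-fold higher in PC3 than in DU145 (0.76 ± 0.24, adjusted p = 0.0266), which was called in 13 of 20 alternatives and had an exact two-sided permutation p = 0.0571. In PC3 against BPH-1 the difference was -0.11 (adjusted p = 0.723), and -0.60 and called after GC correction (adjusted p = 0.0381). For PC3 against DU145, leaving out any of DU145 replicates 1, 2 and 4 or PC3 replicates 3 and 4 ended the call. Over the 5 BH3-only members the summed FPKM was 33.5 ± 1.2 in BPH-1, 28.1 ± 8.8 in DU145 and 12.2 ± 1.2 in PC3 (SD, n = 4). PMAIP1 (23.7, 17.2 and 4.73) was its largest part in each line. The sum does not cover BH3-only genes outside the members. Of these, BAD averaged 7.21, 15.8 and 17.1 FPKM in BPH-1, DU145 and PC3, and HRK 0.469, 1.93 and 0. BAD in PC3 was thus above the whole sum.

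Within DU145, 8 of the 10 members split between replicates 1 and 3 and replicates 2 and 4. The share of all genes that did so was not counted, but the libraries parted in this way over genes at large. The chi-square of reads per gene was 42.3 between replicates 1 and 3 and 26.7 between replicates 2 and 4. Across these pairs it was 119 to 244, so the split was not particular to the members. BCL2L1, BAX, BAK1, BID and BBC3, of 51.6% to 64.5% GC, were each higher in both of replicates 1 and 3 than in both of replicates 2 and 4. BCL2, MCL1 and PMAIP1, of 43.6% to 45.7% GC, were each lower there. BCL2L11 (46.8% GC, log2 ratio -0.41) and BIK (56% GC) were mixed, and BIK, with a log2 ratio of 0.08, did not move like BCL2L1 (56.2% GC, 0.62). The log2 ratio of the mean of replicates 1 and 3 to that of replicates 2 and 4 ran from -1.42 for PMAIP1 to 0.72 for BAK1. Division by the GC trend narrowed the DU145 range of BCL2L1 from 48.7 to 79.0 FPKM to 42.5 to 54.5, and that of BID from 5.88 to 9.33 to 5.91 to 6.59. PMAIP1 in replicate 2 still stood at 27.9, above 15.3 to 16.9 in the other DU145 libraries. The same step would also take out line differences that happen to track GC content.

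**Figure D5:**
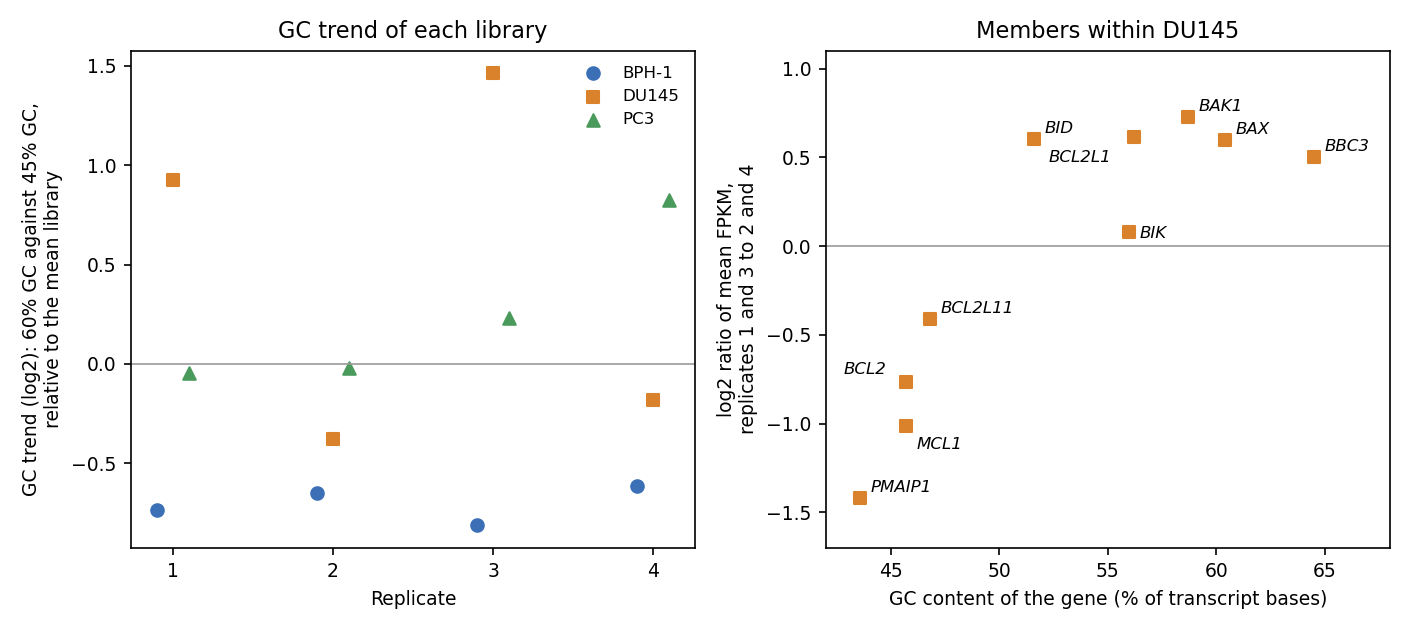
Left, GC trend of each library on the log2 scale, genes of 60% GC against genes of 45% GC relative to the mean library, by line and replicate. Right, for each member within DU145, the log2 ratio of mean FPKM in replicates 1 and 3 to that in replicates 2 and 4 against GC content, from -1.42 for PMAIP1 (43.6% GC) to 0.72 for BAK1 (58.7% GC).

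The order of the members by mean FPKM, a level per length of exon, differed between lines at the top. In BPH-1 it ran MCL1 (37.5), PMAIP1 (23.7), BAK1 (15.1), BCL2L1 (13.3), BAX (9.95), BIK (4.08), BID (3.29), BCL2L11 (1.24), BBC3 (1.16) and BCL2 (0.160), and neighbours overlapped at BAK1 and BCL2L1, BIK and BID, and BCL2L11 and BBC3. In DU145 it ran BCL2L1 (62.4), MCL1 (46.6), PMAIP1 (17.2), BAK1 (17.1), BID (7.64), BAX (4.95), BIK (1.72), BBC3 (1.09), BCL2L11 (0.464) and BCL2 (0.171). There neighbours were apart only at BAK1 and BID, BAX and BIK, BIK and BBC3, and BBC3 and BCL2L11. In PC3 it ran BCL2L1 (54.5), BAK1 (18.8), MCL1 (18.7), BAX (6.81), PMAIP1 (4.73), BIK (3.77), BID (2.71), BCL2L11 (0.789), BBC3 (0.229) and BCL2 (0.0976), and BAK1 with MCL1, BAX with PMAIP1, PMAIP1 with BIK, and BIK with BID overlapped. Among protein-coding genes BCL2L1 moved from the 88.7th percentile of mean FPKM in BPH-1 to the 98.2nd in DU145 and the 97.9th in PC3, and PMAIP1 from the 94.3rd in BPH-1 to the 75.3rd in PC3. The gene length behind these levels counts shared exon parts more than once. With merged exons BCL2L1 passed BAK1 in BPH-1 (28.2 against 26.4), BID passed BIK in BPH-1 and PC3, MCL1 passed BAK1 in PC3 (40.6 against 32.9), and BBC3 passed BIK in DU145.

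Across the 12 libraries, which share the line differences and the GC trends above, Pearson r of log2(FPKM + 1) between members was highest for MCL1 with PMAIP1 (0.90) and lowest for BCL2L1 with BCL2L11 (-0.82). BBC3 with PMAIP1 (0.78) and MCL1 with BBC3 (0.70) also stood at the high end, and MCL1 with BAK1 (-0.77) and PMAIP1 with BAK1 (-0.77) at the low end. Of 12492 other protein-coding genes, the most like BCL2L1 was RPL39L (r = 0.995), the most like BBC3 was CYBA (0.991), and the most like PMAIP1 was TARSL2 (0.988). HSD17B11 was the most like MCL1 (0.987), CEP164 BID (0.981), NECTIN1 BAX (0.969), TBCC BAK1 (0.964), MANBA BCL2L11 (0.959), CRABP2 BIK (0.947) and ZNF383 BCL2 (0.881). These values rank likeness over 12 libraries and carry no test.

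Neighbouring genes were examined for the other members too. BCL2L1 differed more from BPH-1 than each of its tested neighbours within 1 Mb, 14 in DU145 and 12 in PC3, whose medians were 0.13 and 0.27. BIK lay below all 18 tested neighbours in DU145 against BPH-1. Around MCL1, 36 of 52 neighbours were higher in DU145 than in BPH-1 and 3 lower (median 0.70), beside 30.3% higher and 32.4% lower over all genes. After GC correction 27 were higher and 4 lower, beside 25% and 37%. Around BBC3, 0 of 30 were higher and 13 lower in PC3 than in BPH-1, beside 27.1% and 40.4% over all genes. After GC correction 29 were lower (median -0.83), beside 43.4% over all genes (median -0.19). The count of lower neighbours in PC3 rose with the correction around other members too, as at MCL1 (13 to 30 of 53), BAX (21 to 39 of 68) and BAK1 (15 to 25 of 42). It fell around BCL2 (8 to 6 of 13) and BCL2L11 (6 to 5 of 9). Around BCL2, 10 of 13 were lower in DU145 than in BPH-1, beside 32.4% over all genes, SERPINB5 the most (-5.50), while BCL2 itself was at 0.01.

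Of the 13 other BCL2 family genes in a list of the wider family, 10 were tested. In PC3 against BPH-1, 4 were higher and 4 lower, in DU145 against BPH-1 3 and 2, and in PC3 against DU145 3 and 3. Over all genes tested, for this list and those that follow, 27.1% were higher and 40.4% lower in the first of these comparisons, 30.3% and 32.4% in the second, and 20% and 28.3% in PC3 against DU145. BCL2L2, which encodes the anti-apoptotic BCL-w, was 2.87-fold lower in DU145 (log2 -1.44) and 3.17-fold lower in PC3 (-1.81) than in BPH-1, and PC3 replicate 1 stood at 0.942 FPKM against 8.88 to 9.61 in the other PC3 libraries. It shares exons with the readthrough gene BCL2L2-PABPN1. BAD, a BH3-only gene of survival signalling, was 2.19-fold higher in DU145 and 2.37-fold higher in PC3, and neither was called after GC correction (adjusted p = 0.277 and 0.0838, limma). BNIP3, a hypoxia-responsive gene of mitophagy, was 2.31-fold higher in PC3 than in BPH-1, and BCL2L12 2.91-fold higher in PC3 than in DU145. HRK, a BH3-only gene, had 0 reads in all 4 PC3 libraries, 0.310 to 0.754 FPKM in BPH-1 and 1.39 to 2.63 in DU145, and a count of 0 allows up to 3 reads per library.

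Of 20 genes tested that act in caspase activation after cytochrome c release, 7 were higher and 10 lower in PC3 than in BPH-1, 2 and 10 in DU145, and 6 and 0 in PC3 against DU145. Their median log2 fold changes were -0.21, -0.52 and 0.19, beside -0.13, -0.03 and -0.05 over all genes, of which 27.1%, 30.3% and 20% were higher and 40.4%, 32.4% and 28.3% lower. APAF1, the scaffold of the apoptosome, was 9.26-fold lower in DU145 and 4.06-fold lower in PC3 than in BPH-1. BIRC6, a large inhibitor of apoptosis, was 7.07-fold lower in DU145 and 5.71-fold lower in PC3 than in BPH-1. BIRC3 was 2.98-fold lower in DU145 and 11.6-fold lower in PC3 than in BPH-1. Between the PCa lines, DFFB (the caspase-activated nuclease), BIRC5 (survivin) and VDAC2 (a pore protein that holds BAK) were 7.02-, 2.19- and 1.97-fold higher in PC3, and VDAC2 was not called without DU145 replicates 1 and 2 (adjusted p = 0.0563).

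In the death receptor list, which meets the BCL2 family at BID, 3 of 16 genes tested were higher and 5 lower in PC3 than in BPH-1, 6 and 3 in DU145, and 1 and 6 of 15 in PC3 against DU145, with medians of -0.16, 0.17 and -0.19. TNFSF10, the ligand TRAIL, was 38.8-fold lower in DU145 and 46.8-fold lower in PC3 than in BPH-1. Its receptor TNFRSF10B was 4.03-fold higher in DU145 than in BPH-1 and 2.89-fold lower in PC3 than in DU145. The decoy receptor TNFRSF10D was at 1.30 to 4.26 FPKM in BPH-1 and 24.3 to 45.5 in DU145, with 0 to 3 reads in PC3. TNFRSF25 was 5.13-fold higher in PC3 than in DU145, and TNF had 0 reads in all 4 PC3 libraries against 0.961 to 3.28 FPKM in BPH-1. TNF was also 9.37-fold lower in DU145 than in BPH-1.

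Of 18 genes that regulate the transcription or stability of family members, 2 were higher and 12 lower in PC3 than in BPH-1, 6 and 8 in DU145, and 1 and 6 of 16 tested in PC3 against DU145. Their medians were -1.04, -0.05 and -0.43, beside -0.13, -0.03 and -0.05 over all genes, of which 27.1%, 30.3% and 20% were higher and 40.4%, 32.4% and 28.3% lower. TP63, a basal epithelial gene, was at 11.2 to 13.8 FPKM in BPH-1 and at most 0.0542 in the PCa lines. USP9X, a deubiquitinase that stabilizes MCL-1, was 8.65-fold lower in DU145 and 7.23-fold lower in PC3 than in BPH-1. DDIT3, the stress factor CHOP, was 6.01-fold higher in DU145 than in BPH-1 and 6.51-fold lower in PC3 than in DU145. STAT3, an activator of BCL2L1 and MCL1, had 6 to 12 reads per PC3 library, as given above.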

How the data were processed

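Total RNA of the 12 libraries was sequenced by the authors, and the deposited table gave normalized values of 58302 genes with GRCh38 coordinates. No unit stood in the header, and the deposited numbers were taken as FPKM. The submitters' processing notes list CASAVA 1.8, HISAT2 2.1.0 and edgeR. The counting step, the annotation and the use of strand are not given in the sources used here. Dividing by GENCODE 29 lengths that add up the distinct exons of a gene turned 92.2% to 93.6% of low protein-coding values into whole reads (tolerance 0.02), against 15.4% to 18.3% with merged exons. This gave the depth by which the values of each library had been divided (median 15340998 reads). The 263 genes without a length were not tested.

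A count test had been planned only for a table of counts. Instead limma 3.58.1 (R 4.3.3), with a prior that varied with mean level, was run on log2(FPKM + 1) for genes with at least 10 recovered reads, at the median depth, in 4 libraries and 15 in all. Each fit held only the lines compared. Tables and plots used Python 3.11.15, numpy 2.4.6, pandas 2.3.3, scipy 1.17.1 and matplotlib 3.10.9. The fit was tested on simulated data. It recovered nearly all changed genes with few false calls where no GC trend was added. A made-up GC trend was then given to every library of the first line and to none of the second. Without correction false calls were far more frequent in every comparison, and the GC correction brought them back to few. The measured trends, which also differed between libraries of a line, were not simulated. The main fits used no GC correction, so how many false calls they hold is not known. The GC correction divided out a spline with 5 degrees of freedom, fitted over genes with a mean of at least 50 reads. Replicates of a line differed beyond counting noise in all pairs, so none was counted as a duplicate. All counting limits cover counting error only.

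The members and lists were chosen with earlier results of these data known. All members were named, with the 3 largest called and not overlapping changes per list and comparison, and for each member the most similar protein-coding gene. Other genes were named after their values were seen. Alternatives were other filters, scalings and a pseudocount of 0.1, a GC correction, a replicate block, 1 fit over all lines, voom on recovered reads, exact permutation tests and leaving out libraries. Merged exon lengths and leaving out pairs of DU145 libraries were added after seeing the data. Results on some genes are not reported here.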

Additional observations from a re-analysis of the deposited data

Results flagged for a closer look

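Single libraries stood apart from the other 3 of their line in 11 of 97 groups examined by Dixon's test on FPKM, where chance alone gives about 5%. Among the members these were BCL2L1 in BPH-1 replicate 1 (14.4, others 12.8 to 13) and PMAIP1 in BPH-1 replicate 3 (27.3, others 22.3 to 22.9). In BPH-1, BCL2L12 was at 6.23 in replicate 3 (5.48 to 5.56), BIRC5 at 7.45 in replicate 1 (6.28 to 6.39) and VDAC2 at 7.79 in replicate 4 (16.6 to 17.6). In PC3, BCL2L2 was at 0.942 in replicate 1 (8.88 to 9.61), DFFB at 3.43 in replicate 4 (1.75 to 1.81) and TNFRSF10D at 0.0618, 3 reads, in replicate 2 (0 in the others). In DU145, STAT3 was at 21.2 in replicate 4 (24.8 to 25.5), TNF at 0.479 in replicate 1 (0.0732 to 0.116) and TNFRSF10D at 24.3 in replicate 2 (42.9 to 45.5).

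For 5 members the difference from BPH-1 was not the same in the PCa lines. Because both differences use the same BPH-1 libraries, the test of PC3 against DU145 (limma, adjusted over all genes) is the test of that difference on the log2 scale. It was -1.18 for MCL1, -1.21 for BID, -0.76 for BBC3, -1.52 for PMAIP1 and 0.76 for BIK, with PC3 below DU145 where negative. PC3 libraries lay below all DU145 libraries for the first 4 of these genes, and 3 of 4 PC3 libraries lay above all DU145 libraries for BIK. The call between the PCa lines held in 19 of 20 alternatives for MCL1 and in 13 of 20 for BIK.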

How the results depend on the processing

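The number of members called was between 5 and 6 of 10 when single libraries were left out of PC3 against BPH-1 and of DU145 against BPH-1, and between 4 and 6 in PC3 against DU145. Over all genes tested 63.1% to 67.1%, 55.4% to 65.7% and 41.7% to 49.1% were then called. With an absolute log2 fold change over 1 also required, 2, 2 and 3 members were called in these comparisons. Beside them stood 4429 of 16408, 4894 of 17016 and 3177 of 16420 genes. Without DU145 replicates 1 and 2, chosen after seeing the data, PC3 against DU145 called 3 members, beside 37.6% of all genes, and MCL1 and BIK were lost. The GC correction called 9, 7 and 6 members, beside 66%, 62% and 56.1% of all genes tested. It reversed BAK1 in PC3 (-0.38) and in DU145 (-0.65) against BPH-1. The correction divides out a trend that differed between lines. Of the pathway lists, caspase activation in PC3 against DU145 rose from 6 calls to 10 with it and to 10 without DU145 replicates 1 and 3, and with a stricter filter the death receptor list fell from 8 to 5 in PC3 against BPH-1 and from 7 to 4 in PC3 against DU145. Over all genes PC3 against DU145 called 56.1% with the correction and 52.4% without those libraries. The stricter filter called 64.6% of genes in PC3 against BPH-1 and 41.1% in PC3 against DU145. Of the log2 fold changes of members with libraries left out, 247 kept direction and call, 8 became called, 13 lost the call and 12 changed sign. With other alternatives 272 kept both, 11 became called, 6 lost the call and 11 changed sign.

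The sign changes other than those of BAK1 with GC correction were in differences called neither way. With GC correction PMAIP1 in DU145 against BPH-1 was at 0.042 and BCL2L1 in PC3 against DU145 at 0.019. With upper-quartile scaling BID (0.10) and BIK (0.22) in PC3 and BBC3 (0.11) in DU145 turned against BPH-1, as did BIK in PC3 with voom (0.039). With libraries of equal sum BCL2 (-0.025), MCL1 (-0.039) and BAK1 (-0.11) in DU145 turned. Without single libraries BIK in PC3 against BPH-1 ran from -0.27 to 0.10, and in DU145 against BPH-1 BCL2 ran from -0.030 to 0.033, MCL1 from -0.021 to 0.48, BAK1 from -0.013 to 0.26 and BBC3 from -0.10 to 0.0026. Without DU145 replicates 1 and 3 BAK1 (-0.21) and PMAIP1 (0.023) in DU145 against BPH-1 and BCL2L1 (0.13) in PC3 against DU145 turned, and without replicates 1 and 2 MCL1 in DU145 against BPH-1 (-0.037).

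Scaling moved all genes together. The median log2 fold change over all genes in PC3 against BPH-1 was -0.13 as deposited, -0.28 with libraries of equal sum and 0.10 with upper-quartile scaling, and in DU145 against BPH-1 it was -0.03, -0.16 and 0.13. The calls moved from 4452 higher and 6633 lower to 3436 and 7924 and to 6154 and 4993 in PC3, and from 5160 and 5506 to 4131 and 6569 and to 6132 and 4583 in DU145.

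The replicate numbers did not pair the samples, since deviations of libraries with the same number correlated from -0.70 to 0.56. With the number as a block, 5, 5 and 5 members were called, beside 65.4%, 59.5% and 41.1% of all genes, and BCL2L11 in PC3 against BPH-1 was lost. Depth limited BCL2 (12 to 60 reads) and BBC3 in PC3 (12 to 25 reads).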

Other observations

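MYC, a regulator of several BCL2 family genes, was not called in any comparison and was looked at after its values were seen. It was at 20.3, 1.17, 25.5 and 0.985 FPKM in BPH-1 replicates 1 to 4, at 1.13, 0.975, 27.0 and 20.5 in DU145, and at 1.29, 30.3, 1.57 and 1.42 in PC3. In every line it thus stood either near 1 FPKM (145 to 205 reads) or at 20.3 FPKM or more (2600 to 3936 reads), with no library between. Whether libraries had been mixed or mislabelled was not tested. Among the members, BCL2L1 was at 14.4 and 12.8 FPKM in the BPH-1 libraries with much MYC and at 12.8 and 13 in those with little.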
